A study of Mus musculus with 141 samples.

Results

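Interferon-stimulated genes were followed in the inguinal white adipose tissue (iWAT) of a panel of inbred mice, the Hybrid Mouse Diversity Panel (HMDP), which is used to relate genetic background to metabolic traits. The group comprised 35 genes chosen by name from the textbook interferon response, and all 35 were found, 1 row each, among the 36558 genes of the deposited tables. There were 67 libraries from females and 74 from males, from 82 strains with 1 mouse per sex and strain; 59 strains had both a female and a male library, 8 had a female library alone and 15 a male library alone. Every mouse ate a diet rich in fat and sucrose (HF/HS) from the age of 8 weeks, for a further 8 weeks, and the subcutaneous fat was collected after a fast of 4 h, so no untreated or standard-diet group stood beside them. The strains fell into the recombinant inbred families BXD (C57BL/6J by DBA/2J, 40 strains), AXB and BXA (A/J by C57BL/6J, 11 strains), BXH (C57BL/6J by C3H/HeJ, 4 strains) and CXB (3 strains), and into 24 classical inbred strains. AXB19/PgnJ, AXB19a/PgnJ and AXB19b/PgnJ are named as sublines and are not fully independent strains. The label of 1 BXD strain with both libraries, BXD24/TyJ-Cep290<rd16>/J, also names the rd16 allele of Cep290.

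Interferons are secreted when a cell senses foreign or misplaced nucleic acid. Type I interferons bind the Ifnar1 and Ifnar2 receptor, whose kinases Jak1 and Tyk2 activate transcription factors, among them Stat2, which with Irf9 takes part in a complex that binds the interferon-stimulated response element (ISRE) in target promoters. Type II interferon (Ifng) acts through Ifngr1 and Ifngr2 and the kinases Jak1 and Jak2, and its targets can hold gamma-activated sites (GAS). The induced genes encode sensors, antiviral effectors and feedback regulators, and in fat they can be expressed by adipocytes, endothelium and resident immune cells.

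Total estimated counts per library ranged from 6269154 to 78562648 (median 30233245), and a count of 3 corresponded to 0.0992 CPM (counts scaled to a library total of 1000000) at the median depth and 0.479 CPM in the shallowest library. Of the 4935 values of the 35 genes, 1 lay under 3 counts. The sex labels were checked against 4 Y-linked genes: the library labelled male NZW/LacJ held 8.16 CPM of them in sum, against 184.8 CPM or more in every other male library, and the libraries labelled female BXD69/RwwJ and BXD34/TyJ held 368 and 1425 CPM, against at most 34.1 CPM in the other females. These BXD strains had 1 library each and so entered no test over matched strains, but their libraries are among the ranges, correlations and single-sex fits. NZW/LacJ entered the tests over matched strains. Range ends and call counts of the 35 genes that these 3 libraries moved are also given without them. Ranges of marker and pathway genes, the members' mean and the counts of strains higher in females include them. The tissue label was met by the fat cell markers Adipoq, Plin1, Plin4, Cidec and Fabp4, whose summed level ran from 3358 to 42693 CPM with none at 0 in any family. Skeletal muscle markers (5 genes) reached 19544 CPM in sum in females (median 17.3) and 2659 CPM in males (median 20.7). Some libraries thus also held muscle RNA, and its part in the values was not tested. Markers of lymphocytes (8 genes, B and T cells) ran from 5.40 to 1457 CPM in sum in females (median 45.8) and from 4.03 to 1091 CPM in males (median 21.003), and none of the 8 was at 0 throughout a sex. In whole tissue, a change in the number of cells of a type and a change in RNA per cell cannot be told apart.

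The regulatory sequence of the group is shown by the promoters of 5 members. RefSeq windows of 300 bases (GRCm38.p6), from 250 bases before to 50 bases after the transcription start, were at hand for 26 of the 35 genes, 4 of which had 2 windows. The ISRE core, spelled GAAANNGAAA on either strand, was present in 16 of these 26 genes (61.5%), against 3.99% of the 27025 genes with a window. The GAS letters TTCNNNGAA, on either strand, were present in 4 of 26 (15.4%), against 9.55% of all genes; 3 genes held both. In these sequences, capitals mark ISRE core matches, which appear as the reverse complement of the core where the match lies on the opposite strand.
Isg15 (chr4:156200769-156201068, minus strand): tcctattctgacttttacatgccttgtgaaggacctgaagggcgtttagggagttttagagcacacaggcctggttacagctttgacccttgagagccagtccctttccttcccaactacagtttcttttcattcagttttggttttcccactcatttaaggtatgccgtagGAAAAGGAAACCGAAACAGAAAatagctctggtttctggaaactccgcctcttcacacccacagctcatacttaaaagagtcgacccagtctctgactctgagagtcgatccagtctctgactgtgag
Ifit1 (chr19:34640639-34640938, plus strand): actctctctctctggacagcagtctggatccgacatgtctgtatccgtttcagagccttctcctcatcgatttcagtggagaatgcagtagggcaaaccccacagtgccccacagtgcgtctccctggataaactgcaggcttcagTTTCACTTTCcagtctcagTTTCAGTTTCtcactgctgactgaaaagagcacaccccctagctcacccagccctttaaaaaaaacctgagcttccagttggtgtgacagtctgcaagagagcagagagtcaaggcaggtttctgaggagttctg
Ifit3 (chr19:34583279-34583578, plus strand): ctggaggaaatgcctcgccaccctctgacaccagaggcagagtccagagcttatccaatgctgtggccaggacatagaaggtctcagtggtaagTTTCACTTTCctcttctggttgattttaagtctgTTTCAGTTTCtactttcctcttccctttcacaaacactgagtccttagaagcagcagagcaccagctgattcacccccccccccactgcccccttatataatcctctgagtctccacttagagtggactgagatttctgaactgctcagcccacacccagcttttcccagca
Ifit3b (chr19:34607707-34608006, plus strand): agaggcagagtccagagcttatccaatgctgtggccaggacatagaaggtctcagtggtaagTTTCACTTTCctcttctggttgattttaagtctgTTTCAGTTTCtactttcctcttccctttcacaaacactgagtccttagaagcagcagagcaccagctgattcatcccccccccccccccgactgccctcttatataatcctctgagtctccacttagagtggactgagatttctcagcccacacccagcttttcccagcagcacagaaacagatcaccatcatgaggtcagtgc
Bst2 (chr8:71537423-71537722, minus strand): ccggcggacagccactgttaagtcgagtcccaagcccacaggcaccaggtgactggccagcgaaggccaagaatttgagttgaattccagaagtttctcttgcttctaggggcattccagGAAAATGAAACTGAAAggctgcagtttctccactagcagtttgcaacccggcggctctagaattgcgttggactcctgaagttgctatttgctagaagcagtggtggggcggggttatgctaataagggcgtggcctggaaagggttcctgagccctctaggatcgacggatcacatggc

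Isg15, a ubiquitin-like modifier, is shown because it carried the longest stretch, 3 overlapping cores starting 78, 72 and 66 bases before the start. Ifit1, an antiviral RNA-binding protein and a member whose level followed the group closely, had 2 separate cores, both within the 250 bases before the start. The Ifit3 and Ifit3b windows are printed together because these neighbouring genes are near copies: they shared a run of 169 identical bases with both of their cores in it, shifted by 32 bases. Bst2, the membrane tether tetherin, is a member that differed between strain families, and had 2 overlapping cores and a GAS match. No ISRE core was found in the windows of Oasl1, Oasl2, Ifit2, Irf7, Irf9, Cmpk2, Ifi44, Xaf1, Phf11d and Ifi47, which says only that these letters are not in these windows.

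Levels differed widely among the genes. In TPM (length-scaled transcript abundance that sums to 1000000 in each library), mean levels over all libraries ran from 1.74 for Oas3 to 1846 for Ifi27l2a, with a median of 19.4 over the 35 genes. The 3 highest were Ifi27l2a, a small interferon-inducible protein (1846 TPM), Gbp2, an interferon-inducible GTPase (67.7 TPM), and Bst2 (52.1 TPM). The 3 lowest were Oas3, a synthetase of the oligoadenylate messenger that activates RNase L (1.74 TPM), Oasl1, an OAS-like protein (3.17 TPM), and Mx2, an antiviral dynamin-like GTPase (5.08 TPM). The reference annotation lists Mx2 as a polymorphic pseudogene. Ifi27l2a was listed at 0 in 1 library, the male of SEA/GnJ, which had 31905916 counts in all and allows up to 0.0940 CPM; the lowest value elsewhere was 98.9 CPM, in female BXD62/RwwJ. SEA/GnJ had no second library, so this value has no replicate. The plot of levels by gene shows these ranges on the CPM scale.

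**Figure D1:**
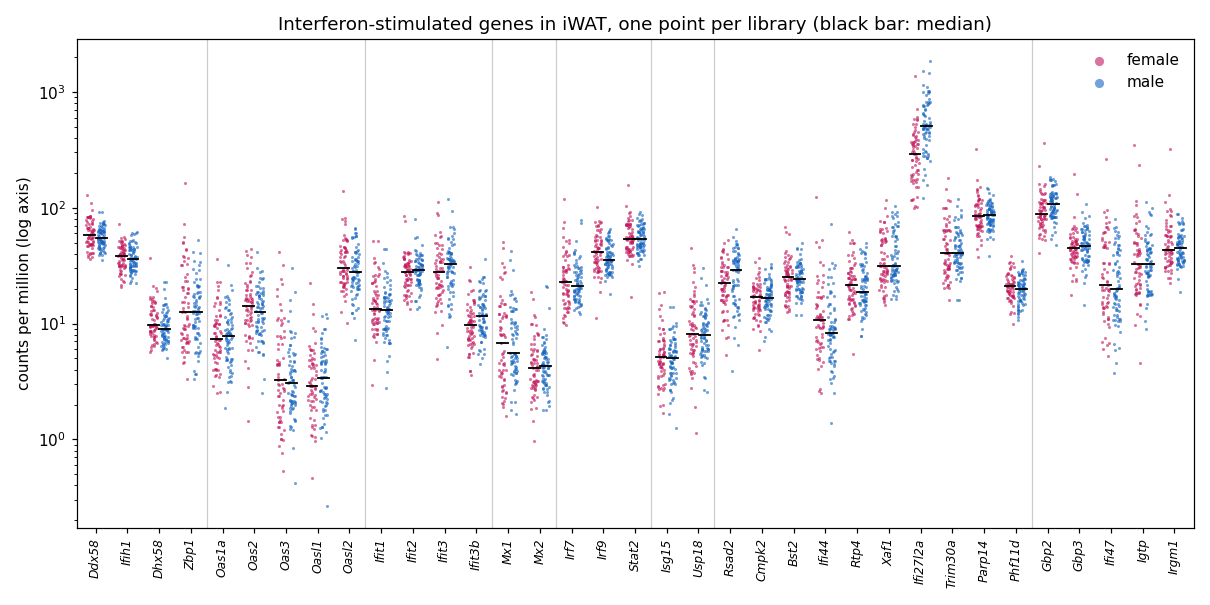
CPM (log axis) of the 35 interferon-stimulated genes in 67 female and 74 male iWAT libraries, ordered by role from sensors on the left to interferon-inducible GTPases on the right; each point is a library and each black bar a median. Ifi27l2a lies above every other gene by its median, and its value of 0 in SEA/GnJ cannot be drawn on a log axis.

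Sex was compared within strains, over the 59 strains with both libraries, with edgeR's quasi-likelihood test and strain as the block; a call is an adjusted p under 0.05 over all 16765 genes tested. Of the 35 genes, 11 were higher in females and 3 were lower, while 21 did not pass. Over all genes tested, 28.5% were called higher and 30% lower in females. The median log2 fold change (log2FC, female vs. male) of the 35 genes was 0.12, beside 0.011 for all genes, and the changes were small: 34 of the 35 lay between -0.25 and 0.40. By role, 2 of the 4 nucleic acid sensors (Ddx58, Dhx58), 2 of 5 OAS genes (Oas2, Oasl2), Ifit1, Irf9, Isg15, 3 of 10 other effectors (Ifi44, Rtp4, Phf11d) and the GTPase Ifi47 were higher in females. Neither Mx gene passed. Ifit3b, Ifi27l2a and Gbp2 were lower.

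**Figure D2:**
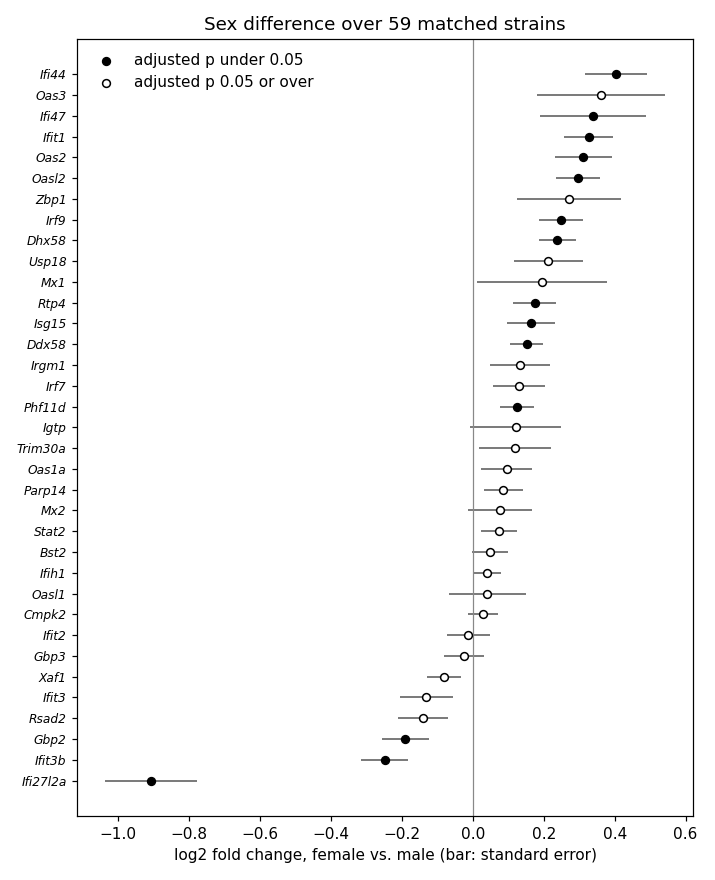
Log2 fold change, female vs. male, of the 35 genes over 59 matched strains with its standard error; filled points have an adjusted p under 0.05. Ifi44 is the highest at 0.40 and Ifi27l2a the lowest at -0.91.

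Ifi27l2a (chr12:103442167-103443680, minus strand, GRCm38) had the widest sex difference. Its levels in females ran from 98.9 to 1359 CPM with a median of 294, and in males from 0 to 1844 CPM with a median of 504. The ranges overlapped, but 9 of 59 strains were higher in females, and the log2FC was -0.91 (SE 0.130, adjusted p = 2.2e-08, edgeR).

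Ifi44 (chr3:151730922-151749960, minus strand), a cytoplasmic protein strongly induced by type I interferon, ran from 2.52 to 123.9 CPM in females (median 10.7) and from 1.38 to 71.7 CPM in males (median 8.26). It was higher in the female library of 45 strains (log2FC 0.40, SE 0.0882, adjusted p = 8.5e-05, edgeR). Ifit1 (chr19:34640871-34650009, plus strand) ran from 2.95 to 51.6 CPM in females (median 13.4) and from 2.76 to 44.3 CPM in males (median 12.96). It was higher in the females of 43 strains (log2FC 0.33, SE 0.0699, adjusted p = 6.3e-05, edgeR). For both genes the sex difference was a shift within widely overlapping ranges.

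The OAS genes make the oligoadenylate that activates RNase L, except the OAS-like genes, of which Oasl2 keeps synthetase activity. Oas2 ran from 1.43 CPM (BXD34/TyJ, with doubted label; 2.84 without it) to 44.05 CPM in females (median 14.2) and from 2.49 to 41.4 CPM in males (median 12.5), and was higher in the females of 41 strains (log2FC 0.31, SE 0.0814; edgeR adjusted p = 0.00085). Oasl2 ran from 10.2 to 140.5 CPM in females (median 30.2) and from 7.17 to 66.8 CPM in males (median 27.9), and was higher in the females of 46 (log2FC 0.30, SE 0.0614; edgeR adjusted p = 3.9e-05). Oas3 had a similar estimate of 0.36 but an SE of 0.180, and did not pass (adjusted p = 0.079, edgeR).

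Ifi47, an immunity-related GTPase, ran from 5.22 to 262 CPM in females (median 21.6) and from 3.77 to 79.4 CPM in males (median 19.9). Its log2FC was 0.34 (SE 0.149, adjusted p = 0.047, edgeR), with 37 of 59 strains higher in females, so the call lay close to the threshold.

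Ifit3 (chr19:34583531-34588731) and Ifit3b (chr19:34607970-34613401), both on the plus strand, share much of their transcript sequence: 61.8% of the 31-base words of Ifit3 transcripts also occurred in Ifit3b. Estimated counts of either gene are therefore uncertain, since reads from shared stretches are divided by the pseudoaligner. Ifit3 ran from 4.97 to 112.7 CPM in females (median 27.7) and from 6.29 to 117.9 CPM in males (median 32.4), and Ifit3b from 3.58 to 30.5 CPM in females (median 9.64) and from 4.49 to 36.3 CPM in males (median 11.7). The log2FC was -0.25 for Ifit3b (SE 0.0671, adjusted p = 0.0012, edgeR) and -0.13 for Ifit3 (SE 0.0750, adjusted p = 0.13), against 0.33 for Ifit1 of the same cluster. The other member with most words in another gene was Oas1a (68.8%, mostly in Oas1g), whose sex call did not pass (adjusted p = 0.26).

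Female and male libraries also differed in other markers. All 7 macrophage markers, all 5 adipocyte markers and all 5 endothelial markers were lower in females, all 9 mammary epithelial markers were higher, and none of the 8 lymphocyte markers passed, with a median log2FC of 0.61. The calls were repeated without the 14 strains in which either library was among the 15 libraries highest by lymphocyte marker level. Of the 35 genes, 5 were then higher in females and 6 lower, and their median log2FC was 0.012. Of all 16588 genes tested in this setting, 3957 were higher and 5308 lower, with a median of -0.0171. Ifi44, Ifit1, Oasl2, Dhx58 and Irf9 were the 5 that were higher, and Ifi27l2a, Ifit3b, Gbp2, Ifit3, Rsad2 and Xaf1 the 6 that were lower. With the lymphocyte marker level as a covariate, 9 of the 35 were higher and 4 lower, and with the macrophage marker level 12 and 1. Of all 16765 genes, 4749 were higher and 5207 lower with the lymphocyte covariate, and 3173 and 3307 with the macrophage covariate. The part of these cell types in the sex differences was not tested. Without NZW/LacJ, 12 of the 35 were higher and 4 lower, beside 5068 and 5209 of all 16766 genes. With library totals in place of TMM, which moved the median of all genes to 0.12, 22 were higher and 1 lower, and of all genes 7512 were then higher and 2806 lower, where TMM gave 4774 and 5032.

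Strain had a broader effect than sex. The test of all strain terms, which asks whether strains differ by more than the 2 libraries of a strain once sex is taken out, called 35 of 35 genes, with 75.8% of all genes tested called. Adjusted p ranged from 4.9e-19 for Xaf1 to 0.02 for Ifi27l2a (edgeR). The SD of strain means on the log2 CPM scale ran from 0.29 for Ddx58, the RIG-I sensor, to 0.99 for Oas3, with a median of 0.62. The 6 genes with the widest spread were Oas3, Ifi44, Ifi47, Zbp1, Oasl1 and Mx1. This spread also holds differences between the 2 libraries of a strain. Pearson's r between the female and male libraries of matched strains was 0.785 for Ifi44 and 0.616 for Oasl1. It was lower for Ifi47 (0.449), Zbp1 (0.422), Oas3 (0.394) and Mx1 (0.176).

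Oas3 (chr5:120753098-120777661) ran from 0.530 to 41.8 CPM in females (median 3.27) and from 0.424 to 30.4 CPM in males (median 3.09), a ratio of 98.8 between the highest and the lowest library. Both lowest values were those of 129X1/SvJ. Oasl1 (chr5:114923240-114937915), which restrains Irf7 translation, ran from 0.463 to 22.3 CPM in females (median 2.91) and from 0.268 to 12.1 CPM in males (median 3.42), a ratio of 82.99. Here both lowest values came from SWR/J. Zbp1, a sensor of Z-form nucleic acid that can start necroptosis, ran from 3.31 to 164 CPM in females (median 12.5) and from 3.33 to 52.6 CPM in males (median 12.6). Mx1, an antiviral GTPase that is defective in most laboratory strains, ran from 1.59 to 50.1 CPM in females (median 6.82) and from 1.66 to 42.4 CPM in males (median 5.54). Mx1 had the lowest likeness between the sexes of a strain (Pearson's r = 0.176, Spearman's rho = 0.173 over 59 strains), and its strain call was among the weakest (adjusted p = 0.019, edgeR). Mx2 ran from 0.960 to 18.8 CPM in females (median 4.16) and from 1.78 to 20.98 CPM in males (median 4.33), and its 2 libraries were more alike (r = 0.556, rho = 0.549).

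The members' mean log2 CPM gives the level of the group in each library. Its median was 4.31 in either sex, with a span of 3.20 to 6.20 among females and 3.32 to 5.64 among males. Among matched strains it was lowest in 129X1/SvJ (3.20 female, 3.32 male), followed by SWR/J and KK/HlJ, and highest in AXB12/PgnJ (6.20 female, 5.07 male), BXD62/RwwJ (5.69 and 5.11), AXB19/PgnJ (5.69 and 5.05) and C3H/HeJ (5.07 and 5.64). The female and male libraries of a strain were alike (r = 0.677, rho = 0.658 over 59 strains; 0.640 when the 2 most extreme strains were left out), and 32 of 59 strains were higher in females. The female library of AXB12/PgnJ, the highest in the series, was also the highest in lymphocyte markers.

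**Figure D3:**
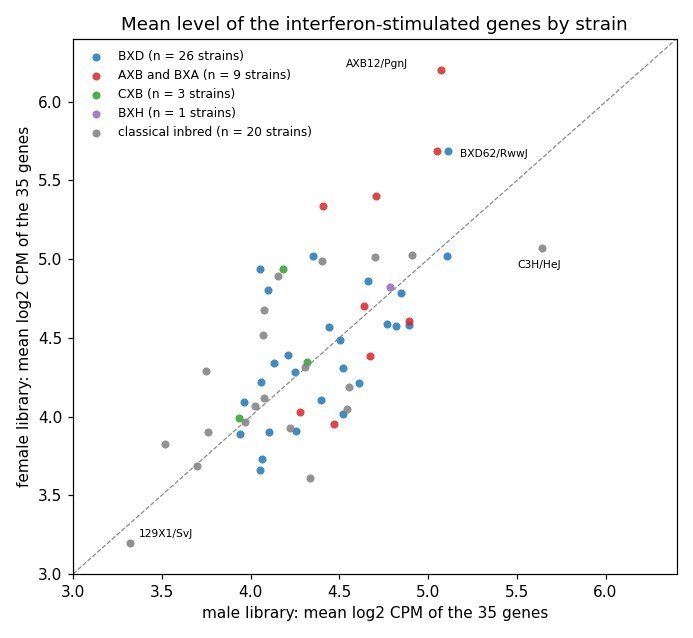
Mean log2 CPM of the 35 genes in the male (x axis) and female (y axis) library of the 59 matched strains, coloured by family; the dashed line marks equal levels. 129X1/SvJ lies lowest in both sexes, and the female library of AXB12/PgnJ is the highest at 6.20.

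Most members moved as a group across libraries. As a description, each gene was correlated with the mean of the other 34, within each sex, since the libraries of a strain are not independent between sexes. In 31 of 35 genes r exceeded 0.5 in both sexes, with a median of 0.817 over the 67 female and 0.731 over the 74 male libraries. Irf7, the transcription factor that amplifies the type I response, had r = 0.931 in females and 0.875 in males, and Usp18, which removes Isg15 from proteins and dampens receptor signalling, had 0.918 and 0.876. Leaving out the 2 libraries farthest from the median gave 0.912 and 0.846 for Irf7 and 0.906 and 0.846 for Usp18. The interferon-inducible GTPases Igtp and Irgm1 had r = 0.919 in females and 0.951 in males, the highest of the 595 pairs in males; in females the highest was 0.938, for Irgm1 and Zbp1. Without the 3 libraries with doubted labels, 31 genes again exceeded 0.5 in both sexes. The libraries share depth and cell makeup, which enter every such value.

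The genes that followed the others less were Ifi27l2a, Xaf1, Rsad2 and Gbp2. Ifi27l2a had r = -0.178 in females and -0.164 in males. Gbp2 had 0.437 and 0.298, Xaf1 0.272 and 0.388, and Rsad2, the antiviral enzyme viperin, 0.447 and 0.490. Rsad2 and its neighbour Cmpk2, a mitochondrial nucleotide kinase transcribed in the opposite direction from chr12:26469204-26479837, followed each other more closely (r = 0.804 in females, 0.854 in males). Unlike Rsad2, Cmpk2 also followed the other members (r = 0.744 in females, 0.723 in males).

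Marker levels moved with the group to different degrees. The lymphocyte marker mean correlated with the members' mean with r = 0.583 in females (rho = 0.626) and 0.258 in males (rho = 0.256), the natural killer marker mean with 0.609 and 0.473, and the plasmacytoid dendritic cell marker mean with 0.583 and 0.156. This last list held 4 genes, Siglech, Ccr9, Klk1 and Ly6d, of which Ly6d was called higher in females. Whether other cells contributed to these 4 was not tested. Macrophage markers gave 0.226 and 0.101, and adipocyte markers -0.475 and -0.188. Their part in the level of the interferon-stimulated genes was not tested.

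Families were compared on counts summed over the 2 libraries of a strain, with the strain as replicate (BXD 26, classical inbred 20, AXB and BXA 9, CXB 3; BXH, with 1 matched strain, was left out). Of the 35 genes, 12 differed between families, where 14.9% of the 20580 genes tested did: Zbp1, Ifit2, Rsad2, Cmpk2, Bst2, Ifi44, Xaf1, Ifi27l2a, Gbp2, Gbp3, Igtp and Irgm1. Without NZW/LacJ 10 were called, Xaf1 and Zbp1 being lost, where 13.66% of 20554 genes were. Without the lymphocyte-rich strains 3 of the 35 were called, Ifi44, Ifi27l2a and Gbp2, where 8.17% of 20622 genes were. No OAS, Mx, ISGylation or transcription factor gene of the group passed.

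AXB and BXA strains were set against BXD strains, which share the C57BL/6J parent and differ in the other parent. Higher levels in AXB and BXA were called for 5 of 35 genes, Ifi44, Zbp1, Igtp, Bst2 and Irgm1, and lower levels for 0. Over all genes tested, 3.03% were called higher and 1.69% lower. The median log2FC was 0.39 for the 35 genes and -0.00252 for all genes, and 34 of the 35 estimates were above 0. The members' median was 0.60 in female libraries alone and 0.15 in male libraries alone.

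Ifi44 had the widest family difference. In BXD it ran from 2.71 to 22.4 CPM in females (median 9.42, n = 32) and from 3.30 to 19.3 CPM in males (median 8.12, n = 34). In AXB and BXA it ran from 5.79 to 123.9 CPM in females (median 23.8, n = 9) and from 3.86 to 33.4 CPM in males (median 21.8, n = 11). The log2FC was 1.72 (SE 0.306, adjusted p = 0.00013, edgeR). The 2 libraries of BXA2/PgnJ were the lowest of the family. The parents lay near the BXD medians or above them (A/J 11.5 female and 8.20 male; C57BL/6J 14.5 female and 8.04 male), and the AXB and BXA medians lay above all 4 of these parental values.

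Bst2 ran from 12.9 CPM (BXD34/TyJ; 13.4 without the doubted labels) to 42.6 CPM in BXD females (median 21.1) and from 11.8 to 44.95 CPM in BXD males (median 22.9). In AXB and BXA it ran from 18.6 to 68.4 CPM in females (median 30.3) and from 25.1 to 49.6 CPM in males (median 29.7), a log2FC of 0.65 (SE 0.146, adjusted p = 0.0027, edgeR). The lowest AXB and BXA males were thus above the BXD male median, although the ranges overlapped.

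Igtp (chr11:58199556-58207591) and Irgm1 (chr11:48861968-48871683) are immunity-related GTPases that act on vacuoles of intracellular pathogens, and are induced chiefly by type II interferon. Igtp ran from 4.58 CPM (BXD34/TyJ; 17.8 without the doubted labels) to 105.7 CPM in BXD females (median 30.1) and from 13.5 to 112.6 CPM in BXD males (median 37.3), against 19.8 to 349 CPM (median 50.5) and 28.3 to 91.4 CPM (median 42.02) in AXB and BXA. Its log2FC was 1.03 (SE 0.254, adjusted p = 0.0069, edgeR). Irgm1 ran from 27.5 to 98.4 CPM (median 42.6) and from 29.4 to 88.2 CPM (median 49.3) in BXD females and males, against 32.3 to 324 CPM (median 57.7) and 35.3 to 75.9 CPM (median 45.7). Its log2FC was 0.62 (SE 0.175, adjusted p = 0.022, edgeR), and in males the AXB and BXA median was the lower of the 2. Zbp1 ran from 4.64 to 55.4 CPM (median 11.1) and from 3.65 to 41.6 CPM (median 12.1) in BXD females and males, against 7.32 to 164 CPM (median 23.3) and 9.80 to 34.1 CPM (median 12.8), a log2FC of 1.06 (SE 0.314, adjusted p = 0.034, edgeR).

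**Figure D4:**
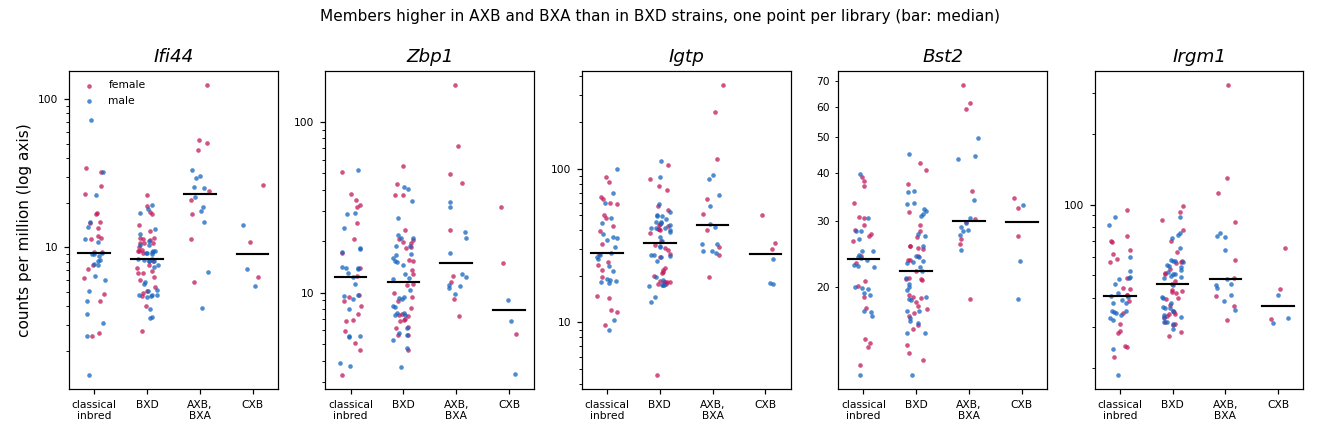
CPM (log axis) of the 5 genes called higher in AXB and BXA than in BXD strains, by family; each point is a library, pink for females and blue for males, and the bar is the median over libraries. For Ifi44 the AXB and BXA bar lies above most BXD libraries, while for Zbp1, Igtp and Irgm1 a few female AXB and BXA libraries lie far above the rest.

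The female library of AXB12/PgnJ held the highest value of Ifi44, Zbp1, Igtp and Irgm1 in the series. Without this strain Ifi44 (log2FC 1.39, adjusted p = 0.0026) and Bst2 (0.57, adjusted p = 0.017) were still called, while Zbp1 (0.64, adjusted p = 0.37), Igtp (0.66, adjusted p = 0.16) and Irgm1 (0.29, adjusted p = 0.45) were not. Without AXB5/PgnJ or without AXB19/PgnJ, 3 genes were called, Bst2, Ifi44 and Igtp. Of all genes, 490 of 20565 were higher without AXB12/PgnJ, 396 of 20559 without AXB5/PgnJ and 585 of 20569 without AXB19/PgnJ. In female libraries alone 11 genes were higher (9 without the doubted labels), and in male libraries alone 2, Bst2 and Ifi44; whether the family difference differs between the sexes was not tested. Without the lymphocyte-rich strains, Ifi44 was the only gene called (log2FC 1.36, adjusted p = 0.021), and Bst2 had 0.60 with adjusted p = 0.053.

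BXD strains were also set against the classical inbred strains. Higher levels in BXD were called for 4 of 35 genes, Rsad2, Xaf1, Cmpk2 and Gbp2, and lower levels for 0, beside 5.58% called higher and 8.6% lower of all genes. The median log2FC was 0.075, against -0.0118 for all genes. These 4 include 3 of those that followed the rest of the group least; Rsad2, Cmpk2 and Xaf1 are named here after their values had been seen. Rsad2 ran from 9.74 CPM (BXD34/TyJ; 10.8 without the doubted labels) to 52.1 CPM in BXD females (median 24.2) and from 11.5 to 66.04 CPM in BXD males (median 33.8). In classical inbred strains it ran from 5.39 to 43.4 CPM in females (median 15.4) and from 3.87 CPM (NZW/LacJ; 6.51 without it) to 40.9 CPM in males (median 14.9). Its log2FC was 0.74 (SE 0.180, adjusted p = 0.0034, edgeR). Cmpk2 had a log2FC of 0.46 (SE 0.116, adjusted p = 0.005). Gbp2 had medians of 100.1 and 124.8 CPM in BXD females and males, against 80.2 and 95.1 CPM, a log2FC of 0.40 (SE 0.111, adjusted p = 0.011). Without the lymphocyte-rich strains only Gbp2 of the 4 was called, beside 354 higher and 805 lower of all 20622 genes.

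Xaf1 (chr11:72301629-72313733, plus strand), a pro-apoptotic antagonist of the inhibitor of apoptosis XIAP, had the strongest strain call of the group and the highest likeness between the sexes of a strain (r = 0.860, rho = 0.807). In BXD it ran from 16.5 to 116.7 CPM in females (median 49.5; 42.2 without the doubted labels) and from 22.6 to 102.5 CPM in males (median 49.2). In AXB and BXA it ran from 20.6 to 53.5 CPM and from 23.6 to 42.4 CPM, and the 6 CXB libraries lay between 22.9 and 28.2 CPM. When the 66 BXD libraries were ordered, the widest step on the log scale was from 38.7 to 46.8 CPM (0.28 on the log2 scale), with 31 libraries below it and 35 above. Of the 26 BXD strains with both libraries, 14 had both above this step, 12 had both below it, and 0 had the 2 libraries on different sides. The parents lay on either side, C57BL/6J at 31.2 CPM in the female and 29.04 in the male and DBA/2J at 53.3 and 67.5. The step was chosen from these same values and is a description; steps of like size occurred in other families (0.27 among the classical inbred libraries), where 10 of 44 libraries lay above 46.8 CPM or at it. The log2FC of Xaf1 in BXD against classical inbred strains was 0.56 (SE 0.194, adjusted p = 0.043, edgeR), and it was not called without NZW/LacJ, without the lymphocyte-rich strains, with library totals, with no filter on low counts, or in either sex alone.

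**Figure D5:**
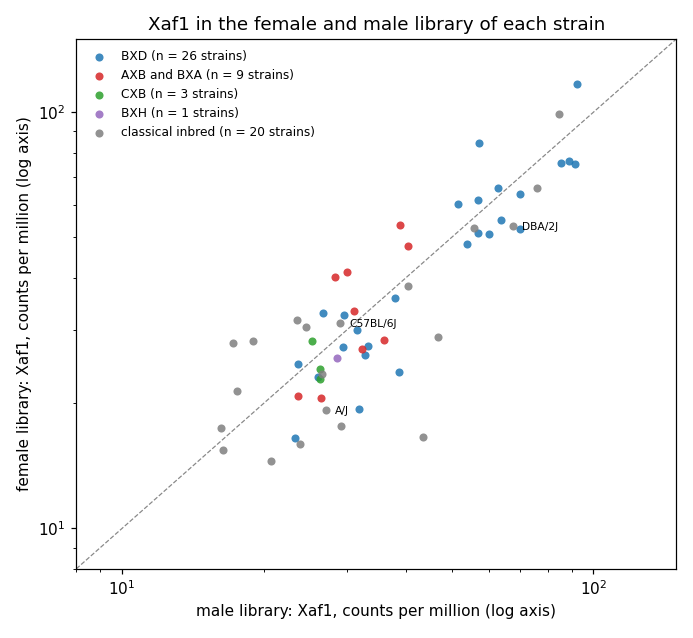
Xaf1 in the male (x axis) and female (y axis) library of the 59 matched strains, in CPM on log axes, coloured by family; the dashed line marks equal levels. The 26 BXD strains lie in 2 stretches along the line, 12 with both libraries at or below 38.7 CPM and 14 with both at or above 46.8 CPM, with C57BL/6J in the range of the lower and DBA/2J in that of the upper.

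Whether the sex difference of BXD strains departs from that of the other strains was tested with an interaction term. By edgeR, 0 of the 35 genes were called, as were 0 (0%) of all 16765 genes, of which 393 had an unadjusted p under 0.05; limma-voom also called 0. Among the 35 genes 1 had an unadjusted p under 0.05, Bst2 (p = 0.04), whose female vs. male log2FC was 0.21 lower in BXD.

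The genes upstream and beside the group were given by 7 lists with 52 genes, of which 46 were tested. For sex, 8 were higher in females and 7 lower, where 28.5% and 30% of all genes were. Without the lymphocyte-rich strains, 4 were higher and 16 lower of 45 tested, where 3957 and 5308 of all 16588 genes were. With library totals 18 were higher and 5 lower, where 7512 and 2806 of all 16765 genes were. Without NZW/LacJ 11 were higher and 7 lower, where 5068 and 5209 of all 16766 genes were. The ligands Ifnb1, Ifna1, Ifna2, Ifna4, Ifnl2 and Ifnl3 were too low to test, with medians of 0 CPM in both sexes, and Ifng (median 0.211 CPM in females and 0.255 in males) was not called for sex (log2FC 0.11, adjusted p = 0.69, edgeR). Of the 6 receptor genes, 4 were lower in females and 1, Ifnlr1, was higher. Ifnlr1, the receptor chain of type III interferon that is known from epithelia, ran from 0.296 to 24.6 CPM in females (median 9.53) and from 0.205 to 9.36 CPM in males (median 0.814), with 58 of 59 strains higher in females (log2FC 3.22, SE 0.182, adjusted p = 9.9e-24, edgeR). The Ifnlr1 ranges include the 3 libraries with doubted sex labels. The mammary epithelial markers, which were all higher in females, had a median log2FC of 6.66, and their part in the Ifnlr1 difference was not tested. Ifngr1, the ligand-binding chain of the type II receptor, had medians of 165.4 CPM in females and 266.6 CPM in males (log2FC -0.61, SE 0.0473, adjusted p = 2.6e-17, edgeR), and Il10rb, the partner chain of Ifnlr1, 54.8 and 65.6 CPM (log2FC -0.27, SE 0.0346, adjusted p = 1.5e-09). Of 5 inhibitors 2 were higher in females and 1 lower: Socs3, which blocks Jak kinases, had 12.8 and 8.09 CPM (log2FC 0.61, SE 0.119, adjusted p = 1.5e-05), and the phosphatase Ptpn11 190.3 and 249.1 CPM (log2FC -0.45, SE 0.0593, adjusted p = 3.2e-09). None of 3 kinases passed.

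In AXB and BXA against BXD, 12 of the 46 tested pathway genes were higher and 0 lower, where 3.03% and 1.69% of all genes were. The count was 2 without AXB12/PgnJ, 1 without the lymphocyte-rich strains, 1 in male libraries alone and 14 in female libraries alone. Leaving out AXB19/PgnJ gave 8. The 12 genes included 8 of the 15 antigen presentation and type II targets (among them the chemokine genes Cxcl9, log2FC 1.19, and Cxcl10, 1.70), the ligand Ifng (1.69, adjusted p = 0.002), Irf1 (0.52, adjusted p = 0.013) and Socs1 (0.93, adjusted p = 0.037). Ifng was also correlated with the members' mean (r = 0.642 in females, 0.414 in males), though in most libraries it rested on few counts.

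Among the 16730 genes outside the lists, the 5 whose order over libraries was most like that of the members' mean were Rnf213 (rho = 0.831 over 67 female and 0.787 over 74 male libraries), Apol9a (0.827 and 0.771), Oas1g (0.801 and 0.770), Herc6 (0.845 and 0.747) and Gm4951 (0.771 and 0.731). Oas1g shares transcript sequence with Oas1a, and the part of shared reads in its likeness was not tested. Rnf213, Apol9a, Oas1g and Gm4951 were higher in females, with log2FC of 0.23, 0.32, 0.37 and 0.44, and Herc6 was not called (-0.05, adjusted p = 0.41, edgeR).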

How the data were processed

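Libraries were 100 bp paired-end, strand-specific RNA-seq of iWAT. The authors pseudoaligned reads with kallisto 0.46.1 to mouse transcripts (Ensembl GRCm38; mm10 in their processing notes) and summed them to genes; the deposited tables hold estimated counts (30.3% not whole) and TPM, which the authors scaled to 1000000 per library. Ensembl IDs were paired with GENCODE vM21 symbols (35935 of 36558). Estimated counts were rounded, filtered with filterByExpr, TMM-normalised and tested with edgeR 4.0.16 (R 4.3.3): ~ Strain + Sex over the 59 matched strains for sex and strain, an added Sex:BXD term for the interaction, and strain sums for families. P-values were Benjamini-Hochberg adjusted over all genes tested, with 0.05 as the threshold. CPM in the text were TMM-scaled over all libraries; log2 CPM used a prior count of 2. Pairing is by strain, as the labels name it; library pairs are separate mice. The steps were tested on simulated data. The members, gene lists and tests were chosen with earlier results of these data known. Genes given in full were, by rule, those with the 6 largest sex differences, the 6 widest strain spreads, the AXB and BXA calls, Ifit3 and Ifit3b, and the 3 highest and 3 lowest mean TPM; other pathway genes were those with the 5 largest sex differences. Alternatives used limma 3.58.1 (log2(TPM + 1), log2(TPM + 0.1) or voom) and DESeq2 1.42.0.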

Additional observations from a re-analysis of the deposited data

Results flagged for a closer look

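In the 9 female AXB and BXA libraries, 12 of 35 genes had a library that stood apart from the others by the gap to its neighbour. The rule flags about 1 in 20 groups only where values are normally distributed. That was not checked for these CPM values, so the count was not tested against chance. The 35 groups also share the same 9 libraries and are not independent. In 11 of the 12 this was the female library of AXB12/PgnJ: Parp14 at 323 CPM (next 150.002), Irgm1 at 324 (next 129.95), Ifi47 at 262 (next 94.7), Zbp1 at 164 (next 72.6), Stat2 at 159 (next 91.4), Oasl2 at 140.5 (next 76.2), Ddx58 at 130 (next 85.2), Ifi44 at 123.9 (next 52.7), Ifit2 at 84.4 (next 41.5), Dhx58 at 37.1 (next 20.2) and Oasl1 at 22.3 (next 12.2). In the remaining case, Mx2 was 18.8 CPM in the female library of AXB19/PgnJ (next 9.93). The AXB12/PgnJ female also had the highest lymphocyte marker mean of the series (7.38 on the log2 CPM scale, against a female median of 2.34), the lowest adipocyte marker mean of the series (8.77, against a female median of 11.2) and the highest macrophage marker mean among females (6.92, against a median of 5.19). The part of these in its values was not tested.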

How the results depend on the processing

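Strain calls were least moved: 31 of 35 genes were called by limma-voom, 33 on log2(TPM + 1) and 35 under each other alternative run. The sex calls (11 higher and 3 lower in females) became 22 and 1 with library totals, 5 and 6 without the 14 lymphocyte-rich strains, and 5 and 2 with all libraries and no replicate block (8 and 3 with NZW/LacJ, BXD34/TyJ and BXD69/RwwJ, of doubted sex label, left out, chosen after seeing the data); the lower calls fell to 1 with the macrophage covariate and on both TPM scales. Without strain as the block that pairs the libraries (no replicate block), 12 were higher and 1 lower. Gbp2 turned to 0.017 with the macrophage covariate; the other 13 called genes kept their sign under every alternative run. Family calls (12) fell to 7 on log2(TPM + 1), 7 in males alone (6 without the doubted labels) and 3 without lymphocyte-rich strains. AXB and BXA calls (5 higher) became 11 in females alone (9 without the doubted labels), 3 with library totals, 2 by limma-voom, 2 in males alone, 1 without lymphocyte-rich strains, and 2 to 5 when each AXB or BXA strain was left out, an alternative chosen after seeing the data. BXD calls against classical inbred strains (4) fell to 2 in females alone, with or without the doubted labels, and to 1 without lymphocyte-rich strains. Apart from the stated covariates and sample removals, the cause of these shifts was not tested. With 1 library per sex and strain, a value of a single strain and sex has no replicate. Depth limits single values of Ifng and of genes near 0.1 CPM. Calls over all genes moved too: the 972 of AXB and BXA against BXD became 332 by limma-voom, 598 without lymphocyte-rich strains, 627 in males alone and 628 without AXB5/PgnJ; the 2918 of BXD against classical inbred strains became 1717 in females alone (1700 without the doubted labels), 1497 in males alone without those labels and 1159 without lymphocyte-rich strains; the 3063 family calls became 1100 on log2(TPM + 1), 1408 by limma-voom, 1684 without lymphocyte-rich strains, 1915 in females alone and 4648 with the lymphocyte covariate; and the 9806 sex calls became 6480 with the macrophage covariate.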
